A study of Mus musculus with 27 samples.

Results

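The solute carrier (Slc) genes described here code for membrane transporters that move small molecules across the plasma membrane and the membranes of organelles. They were selected on their level in control cells, as the Slc genes with a mean of 1 RPKM or more (the authors' read count scaled by transcript length and library size) in the 2 control libraries labelled Eto2 WT, together with *Slc22a4*, which was named outright. Of the 17681 genes in that table, 311 have an Slc symbol, 175 of these reached the limit and 136 lay below it. Of 6 genes of band 3, glucose and iron transport left out by name, 5 had reached the limit and 1 had not, so that 170 were kept. All 170 are listed, and passed the filter on low counts, in every one of the 5 RNA-Seq tables. The last genes inside the limit were *Slc25a43* at 1.05 RPKM, *Slc39a4* at 1.15 RPKM and *Slc38a6* at 1.21 RPKM, and the first outside it were *Slc4a11* at 0.913 RPKM, *Slc35d2* at 0.853 RPKM and *Slc36a1os* at 0.778 RPKM. The symbol, not the function, chose them: *Slc9a3r1* codes for a scaffold protein, *Slc4a1ap* for an adaptor, *Slc2a4rg-ps* is a pseudogene, and *Slc7a6os* is named after its neighbour *Slc7a6*.

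All libraries were made from MEL cells, a mouse erythroleukaemia line arrested at an early erythroblast-like stage (here the C88 clone), so the values belong to 1 transformed line. The knockdown (KD) tables hold Eto2 WT (2 libraries), Eto2 KD-sh2 (2) and Eto2 KD-sh3 (2) for *Cbfa2t3*, the gene of ETO2; Irf2bp2 WT (2) and Irf2bp2 KD-sh1 (2); Lsd1 WT (1) and Lsd1 KD (2) for *Kdm1a*; and Gfi1b WT (2) and Gfi1b KD (2). Cells labelled WT were controls that had received a non-targeting hairpin or siRNA, and each table has its own control libraries. The fifth table compares non-induced MEL cells (2) with MEL cells induced to differentiate (2), and a list of binding sites gives ETO2 and IRF2BP2 ChIP-Seq from MEL cells, of which the ETO2 part came from earlier work and has no library among the samples here. The knockdowns were lentiviral apart from *Gfi1b*, which was depleted by siRNA, and the study describes its replicates as independent biological samples.

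Red cell precursors depend on transporters at several steps. Glycine and iron are needed for haem, amino acids for globin, and the mature cell keeps a restricted set of carriers for urea, anions, glucose and nucleosides after its organelles are lost. Carriers of the SLC25 family sit in the inner mitochondrial membrane, those of the SLC35 family carry nucleotide sugars into the Golgi and endoplasmic reticulum, and the SLC30 and SLC39 families move zinc and manganese in opposite directions.

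The libraries held between 9929311 and 57684583 counted reads, and the Slc genes took 1.05% to 1.35% of them. The floor of 3 counts was at most 0.302 CPM. For single genes CPM are library-scaled counts after TMM normalization. The floor and the summed marker levels were scaled to the library total alone, without TMM. *Cbfa2t3* was at 400.3 and 427.2 CPM in its controls and at 123 to 244 CPM in the 4 KD libraries, and *Kdm1a* went from 152 to 16.9 and 16.3 CPM. *Irf2bp2* mRNA went only from 116 and 120 CPM to 92.2 and 94.9 CPM, a log2 FC of -0.33 (edgeR adjusted p = 0.00266) that is under the limit used for calls. *Gfi1b* was at 122 and 145 CPM in its controls, at 76.5 CPM in 1 KD library and at 216 CPM in the other, so that the library labelled Gfi1b KD 1 goes against its label. Of the 9 erythroid markers 8 are listed. Their summed level went from 1250–1350 to 3446–3629 CPM in *Irf2bp2* KD (8 of 8 called) and from 1837–1985 to 4161–4945 CPM in induced cells (7 of 8 called). It was 1510–1515 CPM in Eto2 WT against 2122–2549 CPM in *Cbfa2t3* KD (6 of 8 past the limits). In Lsd1 WT it was 1578 CPM, against 1105 and 1116 CPM in Lsd1 KD, where only 3 of 8 were lower by the count used for that table. *Alas2* was not lower there, at 66.2 CPM in Lsd1 WT and a mean of 69.6 CPM in Lsd1 KD. The 6 myeloid markers summed to at most 4.23 CPM in any library, with *Csf1r*, *Itgam* and *Emr1* at or under the floor in the *Irf2bp2* and *Cbfa2t3* tables. Megakaryocytic markers (4 of 5 tested) rose from 372–429 to 781–797 CPM in *Irf2bp2* KD (4 of 4 called). They were at 374–537 CPM before and 1155–1357 CPM after induction (2 of 4 called). The part of these shifts in cell state in the transporter values below was not tested, and fewer expressing cells cannot be told apart from less RNA per cell in such bulk libraries.

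In control cells the transporters spanned a wide range, from 1.05 to 518 RPKM with a median of 9.71 RPKM. The 3 highest were mitochondrial. *Slc25a5* and *Slc25a4*, which exchange ADP and ATP across the inner membrane, stood at 518 and 311 RPKM, and the phosphate carrier *Slc25a3* at 359.1 RPKM. *Slc25a5* has processed pseudogenes that may share its reads, so its level is uncertain. Among the 25 genes of the amino acid families the highest was *Slc38a2*, a sodium-coupled neutral amino acid transporter, at 152 RPKM, and the median was 21.0 RPKM. The haem transporter *Slc48a1* led the 21 metal carriers at 149 RPKM, the lactate exporter *Slc16a3* the 20 carriers of other organic solutes at 134 RPKM, and the nucleoside transporter *Slc29a1* the 11 vitamin and nucleoside carriers at 122 RPKM. *Slc9a3r1* led the 17 genes of ions and pH at 85.0 RPKM, *Slc35a4* the 19 of the nucleotide sugar families at 53.2 RPKM, *Slc44a2* the 4 of lipids and choline at 39.9 RPKM, *Slc45a4* the 9 of sugars at 31.6 RPKM and *Slc20a1*, a sodium-phosphate cotransporter, the 7 of the phosphate families at 26.2 RPKM. *Slc51a*, at 3.95 RPKM, was placed in no group. *Slc22a4*, the ergothioneine transporter OCTN1, lay near the bottom at 1.54 and 1.85 RPKM.

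Binding sites were read beside these genes because ETO2 and IRF2BP2 act as corepressors on chromatin. A site was given to the single nearest protein-coding gene within 1 Mb of its centre. Of the 170 genes, 169 are in the annotation of the genome (GENCODE, mm9), and 33 of them (19.5%) were nearest to a site shared by ETO2 and IRF2BP2, against 14.1% of the 10779 annotated genes tested in *Irf2bp2* KD. An ETO2 site of either class was nearest to 41 (24.3%, against 20.4%) and an IRF2BP2 site to 87 (51.5%, against 41.7%). These shares have no replicate and carry no test. The genes have 47 shared sites, 18 ETO2-only sites and 132 IRF2BP2-only sites. The median distance of the centre from the gene's start was 14308 bp for the shared sites and 2439 bp for the IRF2BP2-only sites, against 20609 bp and 8540 bp over the whole list.

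ETO2 reaches DNA through the LDB1 complex, whose composite motif joins an E-box part to a GATA part. It was searched on both strands within 100 bp of each centre as CTG and, after 6 to 8 bases of any kind, either AGATAA or AGATAG or TGATAA or TGATAG, and therefore always contains the GATA motif. The composite motif was found in 17 of the 47 shared sites (36.2%) and in 32.7% of all 2730 shared sites of the list, in 8.33% of the IRF2BP2-only sites and 6.29% of all 8739, and in 2.14% of windows of the same length 2000 bp to either side of all sites. The GATA motif alone was in 44 of the 47 shared sites (93.6%, against 90.4% of all shared sites). The shared sites that hold the composite motif beside genes past the limits in *Irf2bp2* or *Cbfa2t3* KD are given here, so that the letters behind these counts can be read for named genes. Each run is read from mm9 on the strand of the motif, 5′ to 3′, with the composite motif in capitals and 30 bases to either side.
Slc22a4, chr11:53840180-53840256, + strand: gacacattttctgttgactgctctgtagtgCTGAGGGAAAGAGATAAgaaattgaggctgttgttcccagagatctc
Slc38a5, chrX:7849291-7849367, - strand: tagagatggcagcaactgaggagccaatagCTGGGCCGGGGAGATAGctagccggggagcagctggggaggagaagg
Slc16a10, chr10:39851687-39851763, + strand: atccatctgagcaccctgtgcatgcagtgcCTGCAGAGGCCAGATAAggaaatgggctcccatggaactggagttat
Slc16a10, chr10:39861163-39861237, + strand: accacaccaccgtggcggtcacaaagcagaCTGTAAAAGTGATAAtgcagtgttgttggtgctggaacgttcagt
Slc6a9, chr4:117479728-117479802, - strand: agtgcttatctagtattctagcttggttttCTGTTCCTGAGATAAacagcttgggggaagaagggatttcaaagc
Slc16a6, chr11:109354541-109354617, + strand: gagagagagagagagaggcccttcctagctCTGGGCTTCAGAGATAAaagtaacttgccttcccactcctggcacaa
Slc35c1, chr2:92291458-92291533, - strand: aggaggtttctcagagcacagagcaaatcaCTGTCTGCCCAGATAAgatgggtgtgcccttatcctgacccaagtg
Slc41a3, chr6:90568411-90568486, + strand: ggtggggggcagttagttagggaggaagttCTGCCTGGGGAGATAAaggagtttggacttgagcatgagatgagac

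All 7 of these genes rose in *Irf2bp2* KD, but they were picked as genes past the limits, so that a change was required. Other Slc genes with a shared site that holds the composite motif were not called in *Irf2bp2* KD, among them *Slc30a1*, *Slc44a1*, *Slc44a2* and *Slc48a1*. The sites of *Slc22a4* and *Slc38a5* lie within introns, 1405 and 1082 bp into the gene, with a fold enrichment of the ChIP over IgG of 11.5 and 10.6. *Slc16a10* has an intronic pair, at 909 bp (6.2-fold) and at 10343 bp (18-fold), and *Slc41a3* an intronic site at 13726 bp (15.3-fold). The site of *Slc6a9* lies 27376 bp upstream of the gene (10.6-fold), that of *Slc16a6* lies 19670 bp upstream (10.3-fold), and that of *Slc35c1* is just downstream of the gene, 9185 bp from its start (8-fold). The manganese exporter *Slc30a10*, which lacks the composite motif at its shared sites and was picked out after its values were seen, has a shared site 209 bp upstream of its start (35-fold) and another at 17678 bp (14.7-fold).

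*Irf2bp2* KD changed 47 of the 170 genes. The first among them were transporters of ergothioneine, amino acids, riboflavin and manganese, which rose, while the sugar-family gene *Slc45a3* and the organic cation transporter *Slc22a3* fell. Calls rest on the quasi-likelihood test of edgeR over all 12329 genes that passed the filter, with p-values adjusted after Benjamini and Hochberg, and need an adjusted p up to 0.05 together with a log2 FC of at least 0.5 in size. By this rule 30 rose (17.6%, against 10.1% of all genes) and 17 fell (10.0%, against 12.5% of all genes). The median log2 FC of the 170 genes was 0.13 and that of all genes -0.01. For all 47, both KD libraries lay on the same side of both controls. The same count over all called genes was not made, so nothing is read from this.

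*Slc22a4* (mm9 chr11:53796625-53841592, - strand) stood at 4.40 and 5.32 CPM in Irf2bp2 WT and at 14.8 and 14.9 CPM in Irf2bp2 KD-sh1. This was a 3.05-fold rise, with a log2 FC of 1.61 (SE 0.13, edgeR adjusted p = 4.1e-08), the largest rise among the 170 genes. Its neighbours *Slc22a5* and *Slc22a21* are close paralogs, and reads shared between them could be counted for either gene.

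The groups below follow the Slc family number, so that single genes can carry another solute than their group's or none. Their shares stand beside the same 10.1% and 12.5% of all genes and, over groups this small, carry no test. Of the 25 genes of the amino acid families, which include *Slc7a6os*, 4 rose and 4 fell (16% each). *Slc38a5*, which carries glutamine and other neutral amino acids, went from 160 and 195 CPM to 451 and 482 CPM and rose 2.63-fold (log2 FC 1.40, SE 0.10, edgeR adjusted p = 8.14e-09). *Slc43a1*, the leucine-preferring transporter LAT3, went from 95.7 and 103 CPM to 235 and 233 CPM (2.35-fold). *Slc6a9*, the glycine transporter GLYT1, went from 37.3 and 48.6 CPM to 97.0 and 98.9 CPM (2.28-fold). *Slc36a1*, a proton-coupled amino acid transporter of lysosomes and the cell surface, went from 10.7 and 12.6 CPM to 23.3 and 23.4 CPM. In each of these the groups did not overlap, which was a condition for naming the largest rises. Of the members that fell, the neutral amino acid transporter *Slc1a4* went from 78.2 and 97.3 CPM to 44.2 and 43.3 CPM, and the abundant *Slc38a2* from 674 and 663 CPM to 495 and 436 CPM (log2 FC -0.52). *Slc3a2*, the heavy chain shared by several heterodimeric exchangers, fell by 0.60 on the log2 scale, and *Slc7a7*, which pairs with it, by 0.69.

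The carriers of other organic solutes gave 6 rises and 3 falls among 20 genes (30% and 15%). *Slc16a10*, an aromatic amino acid transporter of the monocarboxylate family, rose from 44.1 and 48.4 CPM to 82.3 and 88.5 CPM (log2 FC 0.88, SE 0.09, edgeR adjusted p = 3.65e-07). *Slc16a6* of the same family rose from 28.6 and 27.1 CPM to 65.7 and 61.7 CPM (2.29-fold). The orphan transporters *Slc22a15* and *Slc22a23* rose by log2 FCs of 0.67 and 0.55, and the urea transporter *Slc14a1*, which carries the Kidd blood group, by 0.63. The organic cation transporter *Slc22a3* fell from 44.7 and 33.7 CPM to 14.3 and 12.3 CPM (2.95-fold lower, edgeR adjusted p = 3.45e-08). *Slc18a2*, the vesicular monoamine transporter, fell from 42.5 and 43.3 CPM to 20.7 and 17.7 CPM. *Slc47a1*, an exporter of organic cations, fell from 7.15 and 6.0 CPM to 3.36 and 3.19 CPM.

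Of the 9 genes of the sugar families 4 fell (44.4%, against 12.5% of all genes), 1 rose (11.1%) and 4 were not called, and 4 of the 9 log2 FCs were positive (median -0.22). *Slc45a3* (chr1:133867186-133879540, + strand) went from 53.1 and 54.6 CPM to 16.0 and 13.3 CPM. It was 3.68-fold lower (log2 FC -1.88, SE 0.10, edgeR adjusted p = 2.78e-10), the largest fall among the 170 genes. The fructose transporter *Slc2a5* fell from 5.80 and 7.47 CPM to 3.25 and 3.31 CPM, and *Slc45a4* and *Slc2a8* fell by 0.61 and 0.68 on the log2 scale. *Slc2a6* alone rose, from 6.65 and 7.67 CPM to 15.3 and 17.1 CPM (2.26-fold).

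In the nucleotide sugar families 7 of 19 genes rose (36.8%, against 10.1% of all genes) and 1 fell (5.26%), with a median log2 FC of 0.35. The 7 were the GDP-fucose transporter *Slc35c1*, *Slc35a4*, *Slc35b4*, *Slc35e1*, *Slc35e3*, *Slc35e4* and *Slc35f6*, with log2 FCs between 0.57 and 0.74. The gene that fell was *Slc35a3*, a transporter of UDP-N-acetylglucosamine, with a log2 FC of -0.60. Each rise was thus moderate, below 1 on the log2 scale.

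Of the 21 metal carriers 4 rose and 1 fell (19.0% and 4.76%, against 10.1% and 12.5%). *Slc30a10* (chr1:187278727-187292641, + strand) went from 41.0 and 38.8 CPM to 94.4 and 89.2 CPM (2.30-fold, log2 FC 1.20, SE 0.08, edgeR adjusted p = 6.04e-09). The magnesium transporter genes *Slc41a1* and *Slc41a3* rose by 0.56 and 0.71 and the zinc importer *Slc39a3* by 0.64 on the log2 scale. *Slc39a10*, another zinc importer, fell from 79.3 and 76.1 CPM to 47.6 and 43.3 CPM.

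The remaining groups held fewer calls. Among vitamin carriers the riboflavin transporter *Slc52a3* rose from 43.3 and 60.3 CPM to 126 and 142 CPM (2.58-fold) and the folate transporter *Slc46a1* from 4.83 and 4.56 CPM to 6.60 and 6.81 CPM. Of the 17 genes of ions and pH 2 rose and 2 fell (11.8% each), among them the potassium-chloride cotransporter *Slc12a4*, which rose by 0.52 on the log2 scale. The sulfate transporter *Slc26a1* fell from 15.6 and 15.9 CPM to 9.35 and 8.20 CPM. In the phosphate families *Slc20a1* rose by 0.73, and *Slc17a9*, which by substrate is a vesicular nucleotide transporter, fell by 0.84. Of the 36 mitochondrial carriers 3 rose and 1 fell (8.33% and 2.78%, against the 10.1% and 12.5% of all genes). Those that rose were *Slc25a38*, which supplies glycine for haem synthesis (log2 FC 0.73), the NAD carrier *Slc25a51* (0.59) and the dicarboxylate carrier *Slc25a10* (0.62), and *Slc25a40* fell by 0.75.

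**Figure D1:**
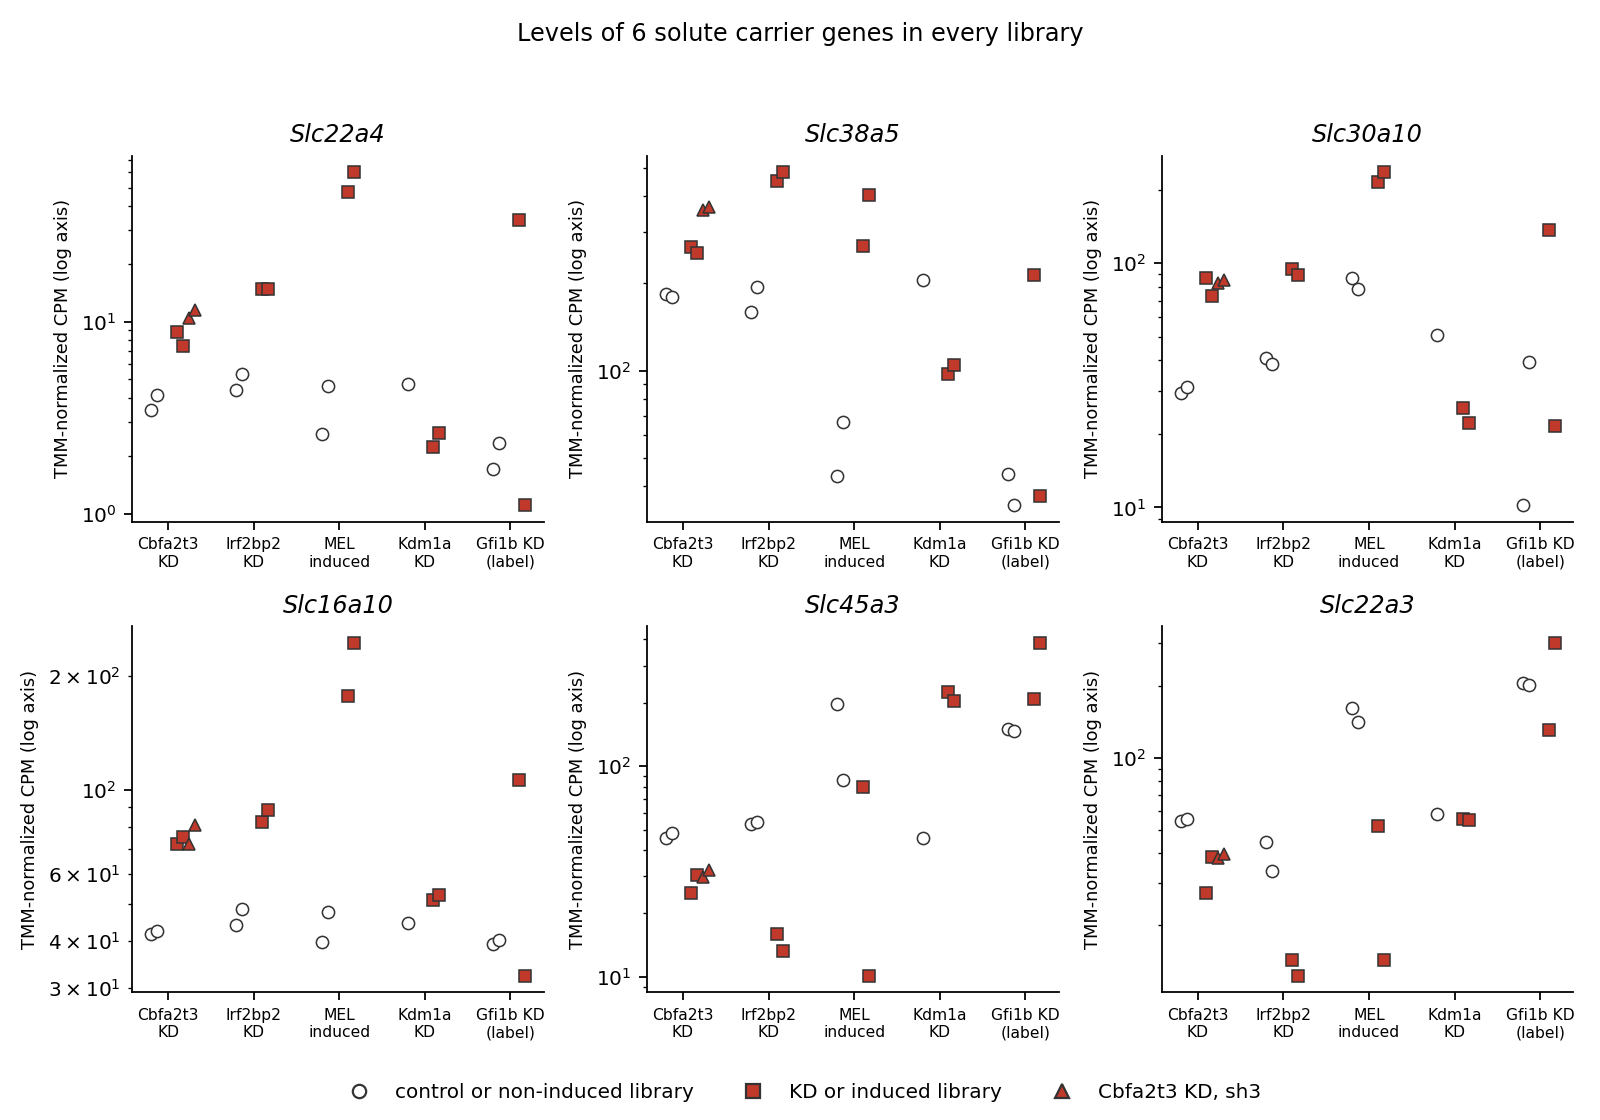
Level of 6 transporter genes in every library, in TMM-normalized CPM on a log axis, with open circles for control or non-induced libraries and filled marks for KD or induced libraries. *Slc22a4*, *Slc38a5*, *Slc30a10* and *Slc16a10* lie above their controls in *Cbfa2t3* KD, *Irf2bp2* KD and induced cells, and the 2 libraries labelled Gfi1b KD lie far apart.

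Induction of MEL cells asks how the same transporters behave when the cells differentiate. Here 22 of the 170 genes rose and 22 fell, against 12.4% of all genes that rose and 14.8% that fell, which gives 12.9% of the Slc genes in each direction. The median log2 FC was -0.01 for the 170 genes and -0.02 for all 11713 tested. The strongest rises were in *Slc22a4* and *Slc38a5*, and the largest falls in *Slc47a1*, *Slc26a1*, *Slc29a2* and *Slc22a3*. The 2 libraries of a group differed more than in the KD tables. The 22 falls became 12 without the second induced library or the first non-induced one and 14 without the second non-induced one, and the 22 rises became 16, 16 and 17.

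*Slc22a4* was at 2.59 and 4.63 CPM before induction and at 47.2 and 60.0 CPM after it, a 15.1-fold rise (log2 FC 3.92, SE 0.36, edgeR adjusted p = 1.09e-05). *Slc38a5* went from 43.2 and 66.6 CPM to 268 and 404 CPM (6.13-fold, log2 FC 2.61, edgeR adjusted p = 6.51e-05). The third was *Slc16a10*, which went from 39.7 and 47.5 CPM to 177 and 244 CPM (4.84-fold). The next 3 were *Slc22a23* with 52.4 and 38.9 against 150.0 and 217 CPM, *Slc6a9* with 45.8 and 27.9 against 141 and 132 CPM, and *Slc25a21*, a mitochondrial oxodicarboxylate carrier, with 10.5 and 18.4 against 33.3 and 65.4 CPM. No induced library of these genes reached down to a non-induced one, which was a condition for naming the largest rises. *Slc43a1*, *Slc22a15* and *Slc30a10* rose 3.15-, 3.14- and 2.72-fold. *Slc25a21* and *Slc22a15* each lost the call when 1 non-induced library was left out.

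Metal carriers gave 6 of the rises and 2 of the falls (28.6% and 9.52% of 21 genes, against 12.4% and 14.8% of all genes). *Slc30a1*, the zinc exporter of the plasma membrane, rose from 24.3 and 27.5 CPM to 74.7 and 86.3 CPM (3.11-fold, edgeR adjusted p = 0.000603). *Slc30a10*, *Slc30a9*, *Slc39a3*, *Slc39a8* and *Slc41a1* made up the rest, with log2 FCs between 0.85 and 1.44. The zinc importers *Slc39a10* and *Slc39a6* fell by 1.42 and 0.99 on the log2 scale. *Slc14a1* rose from 38.6 and 41.6 CPM to 92.4 and 107 CPM, and the choline transporter *Slc44a1* rose by 1.37 on the log2 scale.

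The genes that fell included several of the most abundant transporters of non-induced cells. *Slc25a4* fell from 310.3 and 356 CPM to 108 and 69.8 CPM (3.75-fold lower, log2 FC -1.91, SE 0.27, edgeR adjusted p = 0.00033). *Slc25a5* fell from 565 and 513 CPM to 225 and 157 CPM (2.83-fold lower), with the reservation on its pseudogenes. The citrate carrier *Slc25a1* was 2.19-fold lower. The lactate and monocarboxylate transporter *Slc16a1* was at 426 and 385 CPM before and at 215 and 241 CPM after induction (log2 FC -0.83, edgeR adjusted p = 0.0184). *Slc16a3* was at 409 and 186 CPM before and 176 and 37.9 CPM after induction, so that the groups nearly met, and its adjusted p was 0.047 in edgeR. It was not called with DESeq2 or without the second induced library or either non-induced one.

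Amino acid uptake genes among the falls were *Slc38a1* (48.0 and 50.9 against 18.2 and 9.79 CPM), *Slc1a5*, *Slc7a6* and the lysosomal *Slc38a7*, with log2 FCs from -1.82 to -0.87. *Slc22a3* fell from 161 and 141 CPM to 52.1 and 14.4 CPM, and *Slc18a2* from 246 and 315 CPM to 105 and 76.1 CPM. *Slc47a1* showed the largest fall of all, from 10.1 and 16.1 CPM to 1.11 and 1.42 CPM (10.3-fold lower, edgeR adjusted p = 0.00034). The low-level genes *Slc26a1*, the nucleoside transporter *Slc29a2* and the vitamin C transporter *Slc23a1* also fell, by 2.58, 2.39 and 1.47, but each lost the call without at least 1 library. *Slc9a3r1* fell by 1.17. In the nucleotide sugar families no gene rose and 1 of 19 (5.26%; *Slc35g1*, log2 FC -1.28) fell, against 12.4% and 14.8% of all genes. Whether this differs from the 7 rises in *Irf2bp2* KD was not tested.

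**Figure D2:**
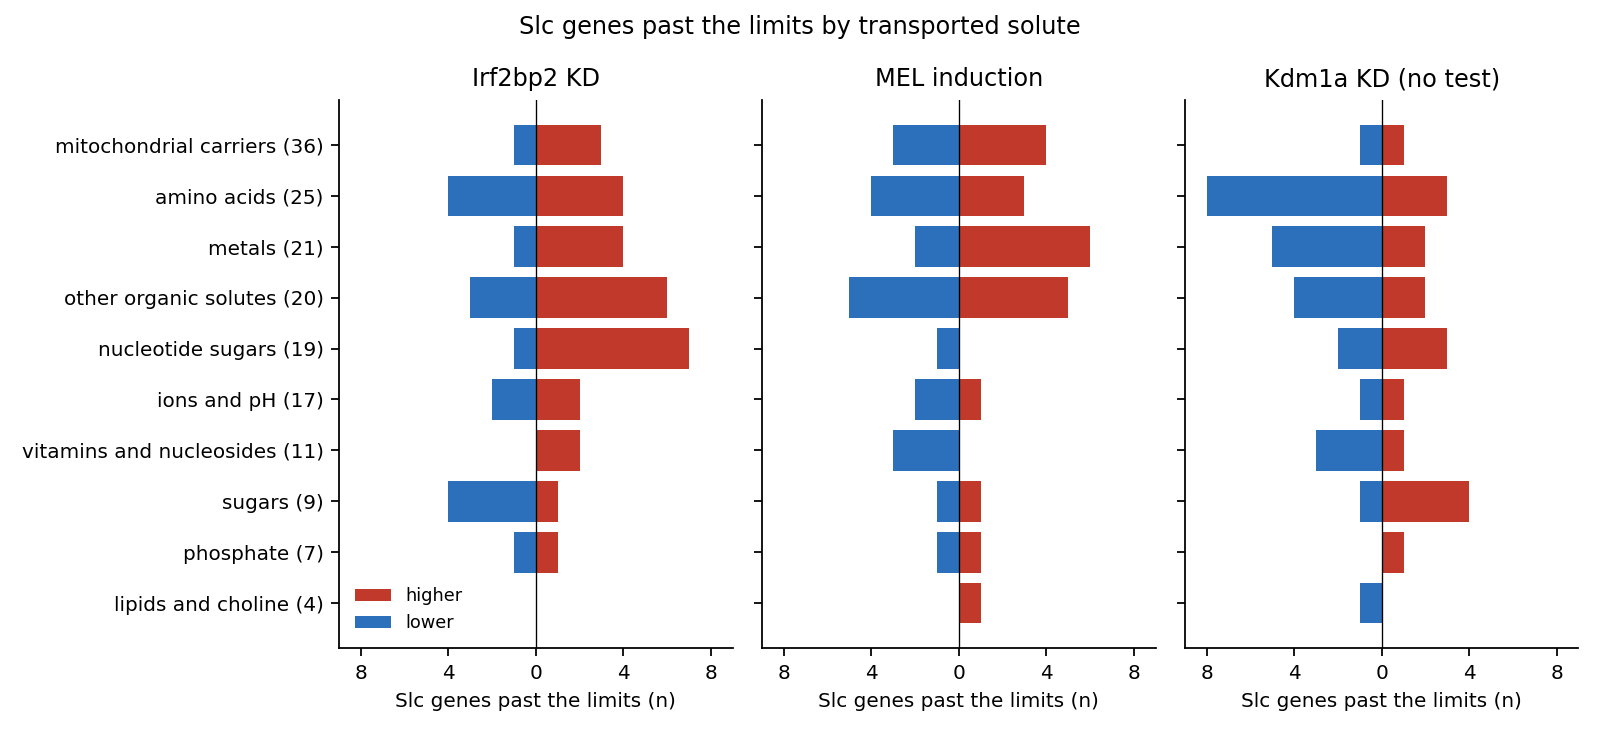
Number of Slc genes past the limits in *Irf2bp2* KD, MEL induction and *Kdm1a* KD, by groups of Slc families named after a solute. Single genes of a group can carry another solute or none. Genes that were higher are in red to the right and lower in blue to the left, with the size of each group in brackets. The nucleotide sugar group has 7 genes higher in *Irf2bp2* KD and none in induced cells; *Slc51a*, in no group, is not drawn.

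The rises in *Irf2bp2* KD and in induced cells fell on many of the same genes. Of the 30 genes that rose in *Irf2bp2* KD 13 also rose on induction, which is 43.3% of the first list and 59.1% of the second. Over all genes tested in both tables these shares were 36.3% and 30.6%. Among the 13 were *Slc14a1*, *Slc16a10*, *Slc22a4*, *Slc22a15*, *Slc22a23*, *Slc25a51*, *Slc30a10*, *Slc38a5*, *Slc39a3*, *Slc41a1*, *Slc43a1* and *Slc6a9*. Falls in both were *Slc18a2*, *Slc22a3*, *Slc26a1*, *Slc39a10* and *Slc47a1* (29.4% of 17 and 22.7% of 22, against 33.0% and 28.0% over all genes). *Slc17a9* was the only one called in opposite directions, with a log2 FC of -0.84 in *Irf2bp2* KD and 1.11 on induction. Across the 170 genes the 2 sets of log2 FCs had r = 0.52, against 0.44 across the 11535 genes tested in both. The genes are not independent replicates, and the tables share no library.

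**Figure D3:**
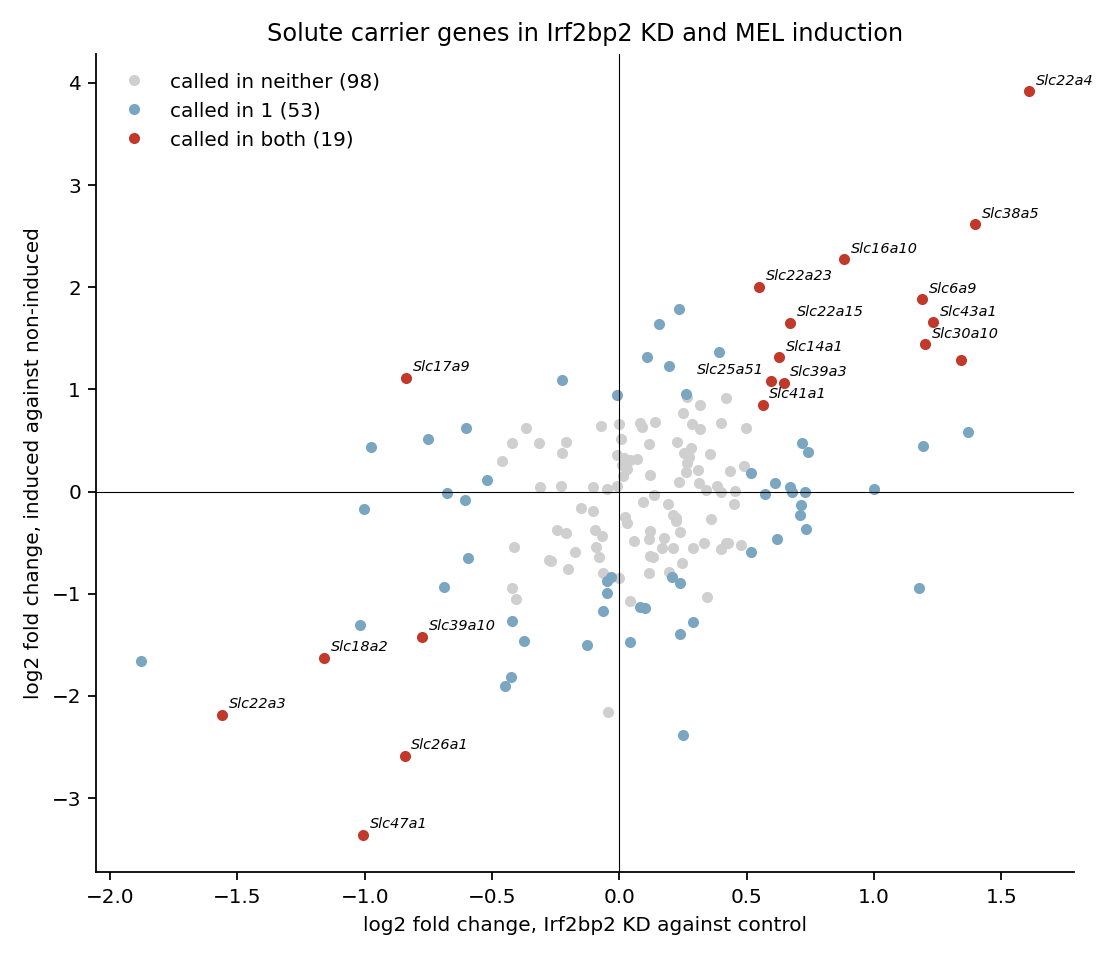
Each point is 1 of the 170 Slc genes, with its log2 FC in *Irf2bp2* KD on the x axis and on MEL induction on the y axis, and genes called in both are red, most of them named. *Slc22a4* and *Slc38a5* lie farthest to the upper right, *Slc22a3*, *Slc18a2* and *Slc47a1* to the lower left, and *Slc17a9* is the only named gene in the upper left.

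The shared binding sites were then counted by call. A shared site was nearest to 15 of the 30 genes that rose in *Irf2bp2* KD (50%), 5 of the 17 that fell (29.4%) and 13 of the 122 annotated genes that were not called (10.7%). Over all annotated genes of the same comparison the shares were 26.9% of those that rose, 16.4% of those that fell and 11.99% of the others. On induction 12 of the 22 genes that rose had a shared site (54.5%), and of the 22 that fell only *Slc22a3* had one (4.55%), against 22.2% and 18.3% over all genes. Genes that rose in both comparisons and had a shared site included *Slc14a1*, *Slc16a10*, *Slc22a4*, *Slc22a23*, *Slc25a51*, *Slc30a10*, *Slc38a5*, *Slc43a1* and *Slc6a9*. The strongest shared site beside a gene that rose in *Irf2bp2* KD was at the glycine carrier *Slc25a38*, in an intron 5449 bp from the start, at 59-fold over IgG. These shares have no test, and several sites can belong to 1 gene.

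**Figure D4:**
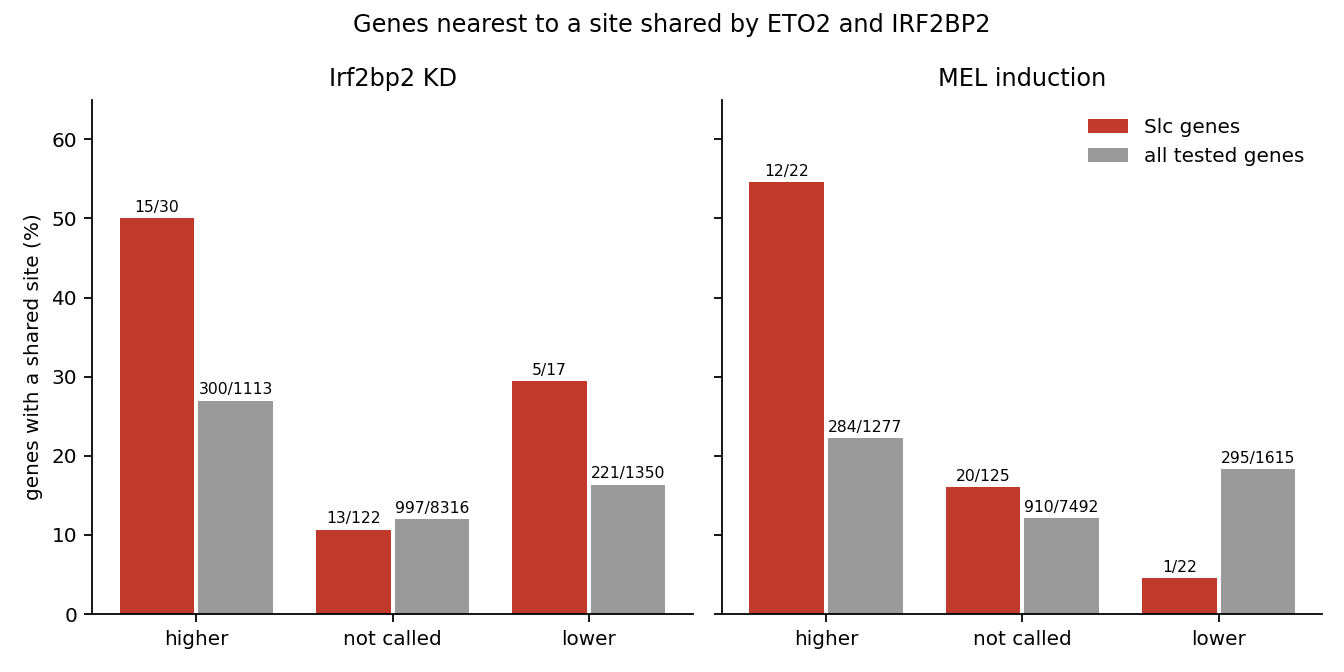
Share of genes nearest to a site shared by ETO2 and IRF2BP2, in percent, for Slc genes (red) and all tested genes (grey) by their call in *Irf2bp2* KD and on MEL induction, with the number of genes over each bar. For Slc genes that rose the share was 50% and 54.5%, and for those that fell on induction it was 4.55%.

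For *Cbfa2t3* KD no p is given and nothing is read from the counts, because the genes were selected on the control libraries of this contrast. The limits, which include the adjusted p of the edgeR fit, serve here only to pick out genes for description. Past them lay 5 of the 170 genes that were higher and 5 that were lower, where 2.99% and 2.75% of all genes were. *Slc30a10* was at 29.3 and 31.3 CPM in the controls, at 87.1 and 73.5 CPM with sh2 and at 83.2 and 85.0 CPM with sh3 (log2 FC 1.44). *Slc22a4* was at 3.45 and 4.14 CPM in the controls, at 8.82 and 7.48 CPM with sh2 and at 10.4 and 11.5 CPM with sh3 (log2 FC 1.33). *Slc16a10* stood at 41.6 and 42.4 CPM against 72.0 to 81.0 CPM in the 4 KD libraries. *Slc38a5* was at 184 and 180.0 CPM without the knockdown, 266 and 254 CPM with sh2 and 358 and 367 CPM with sh3. The fifth was *Slc39a8*, an importer of zinc and manganese, at 52.3 and 50.9 CPM in the controls, 65.9 and 67.1 CPM with sh2 and 91.4 and 91.2 CPM with sh3.

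On the low side *Slc45a3* (45.4 and 48.3 against 24.9 to 32.2 CPM) and *Slc22a3* (54.5 and 55.3 against 27.3 to 39.6 CPM) were lower in all 4 KD libraries. *Slc22a18* lay at 4.26 and 4.46 against 2.81 to 3.48 CPM. These 10 depended on single libraries: without the first Eto2 WT library 2 were higher and 1 lower, without the second 4 and 2, and without the first sh2 library 8 and 3. With sh2 alone 4 were higher and 9 lower, and with sh3 alone 12 and 6.

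The 2 *Cbfa2t3* hairpins were compared with each other in a fit of the KD libraries only, which took no part in the choice of genes. *Cbfa2t3* itself was at 223 ± 29.0 CPM with sh2 and at 134 ± 15.6 CPM with sh3 (SD, n = 2 each). Higher with sh3 were 9 Slc genes and lower 1, against 1.79% and 1.55% of all 12360 genes. *Slc26a1* was at 6.28 and 7.28 CPM with sh2 and at 11.3 and 11.9 CPM with sh3 (log2 FC 0.77, SE 0.11, edgeR adjusted p = 0.00341). *Slc14a1* was at 51.3 and 54.7 CPM with sh2 and 80.0 and 83.0 CPM with sh3 (edgeR adjusted p = 0.000835). *Slc25a21*, *Slc35e2*, the thiamine transporter *Slc19a2*, the myo-inositol transporter *Slc5a3*, *Slc25a14* and *Slc35e1* were higher by log2 FCs of 0.50 to 0.67. *Slc27a3*, of the fatty acid transport family, was lower, at 4.40 and 4.71 against 3.03 and 3.28 CPM, a call that was lost with DESeq2 and without the second sh3 library. *Slc22a4*, *Slc30a10* and *Slc16a10* were not called between the hairpins.

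*Kdm1a* KD has a single control library, so that its differences have no replicate check. Genes were counted where each KD library lay at least 0.5 on the log2 scale to the same side of the control. By this count 18 Slc genes were higher and 26 lower, against 13.1% and 9.8% of all 12628 genes, and the median difference was -0.15 for the Slc genes. *Slc45a3* had 45.8 CPM in Lsd1 WT, 224 CPM in the first and 205 CPM in the second Lsd1 KD library, a log2 difference of 2.23. *Slc38a6*, the lysosomal glutamine transporter *Slc38a7*, *Slc2a6* and *Slc45a4* followed, with 2.74 against 10.5 and 9.65 CPM, 20.1 against 55.5 and 57.2 CPM, 5.28 against 13.7 and 13.0 CPM, and 126 against 297 and 290 CPM. The largest differences downwards were *Slc39a10* (73.5 against 22.6 and 24.5 CPM) and *Slc7a4* (13.5 against 5.09 and 5.12 CPM).

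Several genes that were higher in *Irf2bp2* KD lay lower in *Kdm1a* KD. *Slc30a10* was at 50.7 CPM in Lsd1 WT against 25.5 and 22.2 CPM in Lsd1 KD, *Slc38a5* at 206 against 97.6 and 105 CPM, *Slc52a3* at 43.2 against 22.3 and 20.5 CPM, *Slc6a9* at 38.3 against 19.7 and 20.8 CPM, and *Slc22a4* at 4.72 against 2.23 and 2.63 CPM. In all, 11 of the 30 genes that rose in *Irf2bp2* KD were lower in *Kdm1a* KD (36.7% of the first and 42.3% of the second list) and 5 were higher (*Slc2a6*, *Slc35b4*, *Slc35c1*, *Slc35f6* and *Slc36a1*; 16.7% and 27.8%). Over all genes of both tables the shares were 16.1% and 16.4% for genes that were higher in the one and lower in the other, and 12.7% and 10.7% for genes higher in both. Across all 170 genes the log2 differences had r = -0.18, against -0.15 across all 12182 genes in both tables, and 47.1% had the same sign, against 49.0%. The summed erythroid markers were lower in these KD libraries too, as given above.

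In the table of *Gfi1b* KD edgeR called 0 of the 170 Slc genes and 0.0% of all 11190 genes. At an unadjusted p of 0.05 or less with the same fold limit, a choice made after seeing the data, 12 Slc genes were higher and 3 lower, against 5.33% and 1.57% of all genes. DESeq2 called 0.527% of all genes and a single Slc gene, *Slc2a6*. It was at 1.30 and 0.806 CPM in the controls at 9.48 CPM in the library labelled Gfi1b KD 1 and at 11.7 CPM in Gfi1b KD 2 (log2 FC 3.30, SE 0.50, edgeR adjusted p = 0.553), so that both libraries labelled KD lay above both controls. At the depth and spread of this table the test recovered 13 of 200 genes simulated with a log2 FC of 1, and it called 8 unchanged genes.

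The library labelled Gfi1b KD 1 and the other KD library differed widely. *Slc22a4* was at 1.71 and 2.32 CPM in the controls, at 34.0 CPM in the library labelled Gfi1b KD 1 and at 1.10 CPM in Gfi1b KD 2. *Slc38a5* was at 44.1 and 34.4 CPM in the controls and at 214 and 36.9 CPM in those libraries, *Slc6a9* at 26.6 and 34.7 against 117 and 34.4 CPM, and *Slc30a10* at 10.2 and 39.3 against 137 and 21.6 CPM. In Gfi1b KD 2 alone, none of these 4 lay above both of its controls. The summed erythroid markers were at 1260 and 1379 CPM in Gfi1b WT and ranged from 1326 to 3579 CPM in the KD libraries. Fitted without the library labelled Gfi1b KD 1, 8 Slc genes were higher and 3 lower, against 2.25% and 1.23% of all 11381 genes. Fitted without the other KD library 26 were higher and 29 lower, against 14.6% and 12.0% of all 11802 genes. In both fits the lone library is assumed to vary like the controls. In log2 of CPM + 2 against the control mean, 33 genes were higher and 33 lower by 0.5 or more in the library labelled Gfi1b KD 1, against 19.4% and 14.5% of all genes. In Gfi1b KD 2 16 were higher and 6 lower, against 7.82% and 4.86%. In both libraries 4 were higher (*Slc2a6*, *Slc38a6*, *Slc39a4* and *Slc7a4*) and 3 lower (*Slc16a1*, *Slc25a15* and *Slc35e1*), against 3.62% and 1.11% of all genes; these were named after their values were seen. *Slc45a3* had 151 and 147 CPM in Gfi1b WT, 207 CPM in the library labelled Gfi1b KD 1 and 385 CPM in Gfi1b KD 2.

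**Figure D5:**
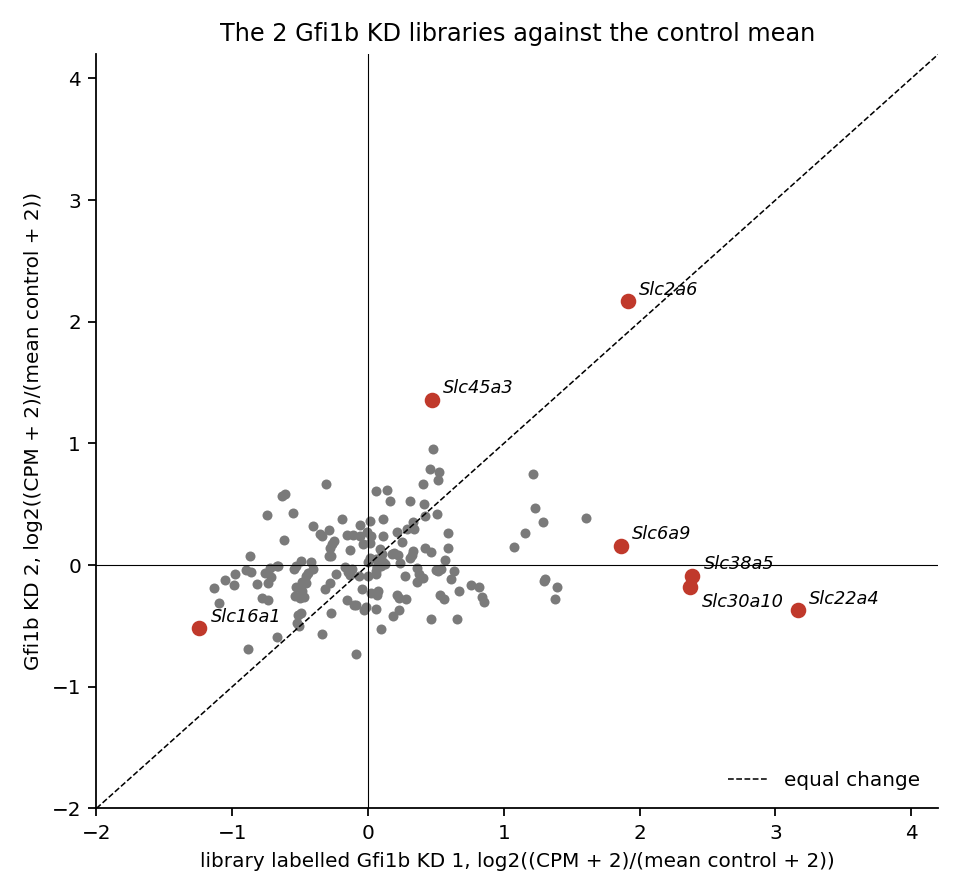
Each point is 1 of the 170 Slc genes, with its log2 difference (CPM + 2) from the control mean in the library labelled Gfi1b KD 1 on the x axis and in Gfi1b KD 2 on the y axis, and a dashed line where both are equal. *Slc22a4*, *Slc38a5* and *Slc30a10* lie far to the right and at or a little below 0 on the y axis, and *Slc2a6* lies high in both.

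Other transport genes gave the following counts. Of 24 ABC transporter genes, the ATP-driven pumps, at or above the same RPKM limit, 5 rose and 3 fell in *Irf2bp2* KD (20.8% and 12.5%, against 10.1% and 12.5% of all genes), and 5 rose and 4 fell on induction (20.8% and 16.7%, against 12.4% and 14.8%). Of 15 partner and non-SLC carrier genes 10 were tested in each of these tables. *Mfsd2b*, the sphingosine-1-phosphate exporter of red cells and platelets, rose from 94.5 ± 14.3 to 150.1 ± 13.6 CPM in *Irf2bp2* KD and from 95.2 ± 31.6 to 594 ± 114 CPM on induction (SD, n = 2 each). The mitochondrial pyruvate carrier *Mpc2* fell from 34.5 to 22.4 CPM in *Irf2bp2* KD, and the channel *Vdac2* of the outer mitochondrial membrane from 138 to 76.1 CPM on induction. *Bsg*, the chaperone of the monocarboxylate transporters, had a log2 FC of 0.37 in *Irf2bp2* KD, under the limit.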

How the data were processed

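The Slc genes and the other gene lists were chosen with earlier results of these data known. The authors mapped RNA-Seq reads with Tophat2 to mm9 and counted them per RefSeq gene; the deposited tables hold raw counts and RPKM values per library. Counts were used for all tests and the authors' RPKM values only to choose genes and compare their levels. The authors' DESeq2 fold changes and p-values, which the tables also hold, were not used. The deposited site list gives a fold enrichment (a ratio, ChIP over IgG) and a class code read from the sizes of the classes, and 4 of its columns could not be given to 1 library and were not used.

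Counts were fitted per table in R 4.3.3 with edgeR 4.0.16 (TMM, filterByExpr, glmQLFit, glmQLFTest, Benjamini-Hochberg), and *Kdm1a* KD was given as log2 CPM with a prior count of 2. DESeq2 1.42.0 was an alternative. On simulated data, with a log2 FC of 1 given to 200 genes, the test recovered 176 in *Irf2bp2* KD, 46 in MEL induction, 176 between hairpins and 13 in *Gfi1b* KD. Unchanged genes called in the same runs were 3, 7, 8 and 8, in that order. Slc genes were grouped by family number. Named genes were *Slc22a4*, the 10 largest rises and 10 largest falls per replicated comparison (5 in *Kdm1a* KD and between hairpins) with groups that did not overlap, genes past the limits in 3 or more comparisons, the highest gene per group and 3 genes to either side of the RPKM limit; others illustrate the group counts. Sites were assigned in Python 3.11.15 with GENCODE gene starts. Floors of 3 counts cover counting error only. Alternatives were other scalings, filters and fold limits, the replicate number as a block, an RPKM limit of 5, single hairpins, assignment within 100 kb, sites at or above the median fold, and leaving out each library. Some of the Slc genes are counted in the totals but not reported here by name.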

Additional observations from a re-analysis of the deposited data

Results flagged for a closer look

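Between the *Cbfa2t3* hairpins 9 Slc genes given here differed by the test of sh3 against sh2 itself, although both hairpins target the same mRNA. The log2 differences of sh3 from sh2 were 0.77 for *Slc26a1*, 0.67 for *Slc25a21*, 0.66 for *Slc35e2*, 0.64 for *Slc19a2*, 0.62 for *Slc14a1*, 0.51 for *Slc25a14*, 0.51 for *Slc5a3*, 0.50 for *Slc35e1* and -0.53 for *Slc27a3*. *Cbfa2t3* itself was lower with sh3 by 0.74 on the log2 scale, and the part of this in the differences was not tested.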

How the results depend on the processing

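Of the counts of Slc genes past the limits, 108 values under an alternative stayed within 1.5 times the reported count and 36 did not; where one moved, the cause was not tested unless the alternative itself is a wider or narrower limit. In *Irf2bp2* KD only the fold limit moved the counts, to 63 higher and 29 lower without a limit and to 9 and 6 at a log2 of 1, and leaving out 1 library gave 29 to 35 higher and 17 to 18 lower. In MEL induction leaving out 1 library gave 16 to 23 higher and 12 to 32 lower. In *Gfi1b* KD DESeq2 called 1 higher, no filter on low counts gave 6 higher and 1 lower, unadjusted p-values (added after seeing the data) gave 12 and 3, and leaving out 1 library gave 0 to 26 higher and 0 to 29 lower. *Slc22a4* there had a log2 FC of 3.14, which went to -0.85 without the library labelled Gfi1b KD 1 and to 4.08 without the other. Between the hairpins the higher count became 22 without a fold limit and 0 at a log2 of 1. The lower count became 2 and 0 in those settings, 0 with DESeq2 or an RPKM limit of 5, and 0 to 1 without 1 library. In *Cbfa2t3* KD 15 were higher without a fold limit, 2 higher and 0 lower at a log2 of 1, 9 lower with sh2 alone, 12 higher with sh3 alone, and leaving out 1 library gave 2 to 8 higher and 1 to 5 lower. In *Kdm1a* KD 8 were higher at an RPKM limit of 5. Of the log2 FCs of named genes 518 kept their call, 40 lost it, 3 gained it and 1 reversed.

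Groups share replicate numbers, but no label ties a number to a shared batch, and with 2 numbers each the samples were treated as unpaired. Across genes, the deviations of same-numbered libraries from their group means had r = 0.025 in *Irf2bp2* KD, 0.0015 in *Gfi1b* KD, 0.196 in MEL induction, 0.26 between hairpins and 0.118 to 0.252 in *Cbfa2t3* KD. With the replicate number as a block the counts were 30 higher and 17 lower in *Irf2bp2* KD, 27 and 36 in MEL induction (against 22 and 22 without it), 0 and 0 in *Gfi1b* KD, 9 and 1 between hairpins, and 4 and 3 in *Cbfa2t3* KD. The *Gfi1b* and MEL libraries had at most 19623105 counts, and the simulated recovery was lower there (13 and 46 of 200 genes, against 176 in *Irf2bp2* KD); depth and spread were not separated.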
